A study of Mus musculus with 17 samples.

Results

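Transcripts of 10 genes that mark or control the epithelial state were followed in cultured tubular cells and in ageing kidneys of the mouse. The genes were the cadherins Cdh1, Cdh2, Cdh6 and Cdh16, the epithelial adhesion molecule Epcam, which is not a cadherin, and the transcription factors Snai1, Snai2, Twist1, Zeb1 and Zeb2. They were chosen by name and matched to Ensembl gene identifiers, and all 10 were found among the 53313 identifiers common to the 17 libraries of 5 groups.

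RNA was sequenced from primary tubular epithelial cells (PTEC) and from kidneys of wild-type C57BL/6Rj mice. This is the labels' spelling of the strain, which the study's methods write as C57BL/6JRj. PTEC grew out of tubular fragments of collagenase-digested kidneys in REGM2 medium. Non-senescent PTEC were taken at day 6 without irradiation (4 cultures), and senescent PTEC at day 16 after 10 Gy of γ-irradiation given at confluence (4 cultures), so that irradiation and time in culture cannot be told apart. Kidneys of male mice, untreated, were taken at 3, 12 and 24 months of age (3 mice per age). The labels do not say whether cultures came from separate mice, so PTEC p-values measure the spread between cultures, which may be technical. The study used the first comparison as an in vitro model of tubular senescence and the second as chronological ageing. Totals of counted reads were 26963442 to 35409144 in the cultures. In the kidneys the total was 37311247 to 49471409 at 3 months, 54097073 to 59718029 at 12 months and 62761670 to 66894790 at 24 months. Kidneys of 3 months had been counted on another gene set than the older ones, so age and gene set cannot be told apart where 3 months is compared, although each of the 10 genes was in every set.

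The labels call the cultured cells proximal tubular cells. Of 12 proximal tubule markers, 4 were below 1 CPM (reads of a gene relative to all counted reads of its library) on average in non-senescent PTEC, namely Slc5a12, Slc22a6, Slc22a8 and Miox. In senescent PTEC 7 of 12 were below 1 CPM, while the summed level of the list was 143 to 756 CPM in non-senescent and 160 to 344 CPM in senescent cultures. All 12 were above 1 CPM in kidneys, where the sum was 44141 to 57630 CPM. Lrp2, the endocytic receptor megalin, was at 203 ± 225 CPM in non-senescent and 227 ± 96.2 CPM in senescent PTEC (SD, n = 4 each), and at 1629 to 2031 CPM on average at the 3 ages of kidney. The cells are therefore called PTEC as labelled, with these markers far below their kidney levels.

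Cadherins are calcium-dependent adhesion molecules that join neighbouring cells at adherens junctions, where their cytoplasmic tails bind catenins. In the mouse kidney Cdh1 (E-cadherin) is best known from the distal tubule and collecting duct, Cdh2 (N-cadherin) and Cdh6 (K-cadherin) from the proximal tubule and its precursors, and Cdh16 (Ksp-cadherin) is a kidney-specific cadherin of tubular epithelium. Epcam lies on the basolateral membrane of many epithelia and is strongest in the collecting duct. Snai1 (Snail), Snai2 (Slug), Zeb1 and Zeb2 are zinc finger repressors and Twist1 is a basic helix-loop-helix factor. They drive epithelial-mesenchymal transition (EMT), in which epithelial adhesion genes are turned down and cells take on mesenchymal traits, and Snail, Slug and ZEB proteins bind the E2-box, CAGGTG or its reverse complement CACCTG.

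Positions are those of GRCm38 with gene models of GENCODE release M21. Cdh1 (ENSMUSG00000000303.12) lies on chromosome 8 from 106603351 to 106670246 and Cdh16 (ENSMUSG00000031881.6) on the same chromosome from 104601911 to 104624396. Cdh2 (ENSMUSG00000024304.14) lies on chromosome 18 from 16588877 to 16809246, Cdh6 (ENSMUSG00000039385.5) on chromosome 15 from 13028701 to 13173675, and Epcam (ENSMUSG00000045394.9) on chromosome 17 from 87635979 to 87651129. Snai1 (ENSMUSG00000042821.7) lies on chromosome 2 from 167538195 to 167542814, Snai2 (ENSMUSG00000022676.7) on chromosome 16 from 14705852 to 14709385, and Twist1 (ENSMUSG00000035799.6) on chromosome 12 from 33957671 to 33959829. Zeb1 (ENSMUSG00000024238.15) lies on chromosome 18 from 5591860 to 5775467 and Zeb2 (ENSMUSG00000026872.17) on chromosome 2 from 44983632 to 45117395. Each value is the sum over all exons of a gene and does not separate isoforms. Zeb2 shares 653 exonic bases with Zeb2os on the opposite strand, and Zeb1 shares 198 with Gm10125. The strand setting of the counting is not given in the sources used here. Zeb2os stood at 0.708 ± 0.140 CPM in non-senescent and 1.21 ± 0.244 CPM in senescent PTEC (SD, n = 4 each), but at 8.37 to 13.8 CPM on average in kidneys, where Zeb2 itself was at 14.4 to 20.2 CPM on average, so reads of the pair may be mixed there.

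Promoter windows of 250 bases before the gene start, from RefSeq (GRCm38.p6), were searched for 5 of the 10 genes, namely Cdh6, Epcam, Snai1, Twist1 and Zeb2. The remaining genes were not searched, which does not mean that RefSeq holds no window for them. Windows are shown for the 3 genes on which the results below turn or which differ in the motif. The E2-box was searched because it is the letter pattern that several of the studied factors bind. Capitals mark E2-boxes found on either strand.

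Epcam chr17:87635729-87635978 (+ strand): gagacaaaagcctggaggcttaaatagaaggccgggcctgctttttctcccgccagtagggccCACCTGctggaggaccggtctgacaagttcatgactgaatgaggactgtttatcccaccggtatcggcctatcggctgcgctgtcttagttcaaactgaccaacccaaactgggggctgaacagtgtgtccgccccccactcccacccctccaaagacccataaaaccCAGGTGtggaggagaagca

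Snai1 chr2:167537945-167538194 (+ strand): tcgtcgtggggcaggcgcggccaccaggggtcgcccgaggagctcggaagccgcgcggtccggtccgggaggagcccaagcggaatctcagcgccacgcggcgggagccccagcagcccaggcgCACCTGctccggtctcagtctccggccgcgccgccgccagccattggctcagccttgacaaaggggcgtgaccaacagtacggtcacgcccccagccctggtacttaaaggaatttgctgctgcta

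Cdh6 chr15:13173676-13173925 (- strand): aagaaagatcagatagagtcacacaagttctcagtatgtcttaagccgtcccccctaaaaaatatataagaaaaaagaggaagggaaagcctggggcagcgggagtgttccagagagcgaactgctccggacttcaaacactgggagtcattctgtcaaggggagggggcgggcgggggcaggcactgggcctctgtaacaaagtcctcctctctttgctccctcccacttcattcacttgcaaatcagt

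The Epcam window held 2 E2-boxes, with their first bases at -187 and -19 from the gene start, and the Snai1 window held 1, at -126. The windows of Cdh6, Twist1 and Zeb2 (4 start sites) held none. Of 32851 RefSeq promoter windows of this length, 17.22% held at least 1 E2-box and 2.064% held 2 or more. A match is a description of letters and does not show binding.

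Levels of different genes were compared as CPM per kilobase of merged exons. Among the 10 genes Cdh16 had the highest level in kidneys of every age and in non-senescent PTEC, at 203 ± 64.9 CPM per kilobase in the latter (SD, n = 4). There, Epcam, Cdh6 and Cdh1 followed at 72.4 ± 7.56, 70.0 ± 31.0 and 66.1 ± 18.4 CPM per kilobase, levels that did not differ beyond their spread, then Cdh2 at 29.5 ± 6.39. In senescent PTEC Cdh6 came first at 146 ± 55.0, followed by Cdh16 at 124 ± 12.6 and Cdh2 at 71.9 ± 12.4, with Epcam at 43.7 ± 29.1 and Cdh1 at 34.4 ± 17.5. The ranges of Cdh6 and Cdh16 overlapped, as did those of Epcam and Cdh1. In both groups of PTEC the mean of every factor was below those of the cadherins and Epcam. In non-senescent PTEC they ran from Zeb2 at 2.18 ± 0.861 and Zeb1 at 1.98 (0.932 to 2.85) through Snai1 at 0.780 ± 0.330 and Snai2 at 0.660 ± 0.344 to Twist1 at 0.153 ± 0.0609 CPM per kilobase, each neighbour overlapping the next except Snai2 and Twist1. Zeb1 and Zeb2 led in senescent PTEC at 4.72 ± 1.69 and 3.92 ± 1.27, before Snai2 at 2.91 ± 1.23, and Snai1 and Twist1 were at 0.736 ± 0.195 and 0.684 ± 0.168. Neighbours in this last order overlapped, except Snai2 and Snai1.

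In kidneys the order was different. At 3 months Cdh16 stood at 256 ± 52.9 CPM per kilobase (SD, n = 3), Epcam at 46.4 ± 8.80 and Cdh1 at 39.3 ± 8.12, the latter pair overlapping. The other 7 genes were all below 1 CPM per kilobase, from Cdh2 at 0.831 ± 0.242 down to Twist1 at 0.178 ± 0.0636. Within these 7, neighbours lay within each other's spread except Twist1 at the bottom, whose 3 kidneys all lay below those of Zeb1. At 12 and 24 months Cdh1 took the place above Epcam, with 30.0 ± 10.8 against 21.6 ± 1.22 and 35.5 ± 6.82 against 29.3 ± 0.632 CPM per kilobase. The Cdh1 range included the Epcam values at both ages. The other 7 genes lay between 0.233 ± 0.0461 (Twist1) and 1.01 ± 0.239 (Zeb2) at 12 months and between 0.225 ± 0.0152 (Twist1) and 1.15 ± 0.250 (Cdh2) at 24 months.

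PTEC and kidneys are different material, were counted on different gene sets and were scaled apart, so their levels stand side by side without a test. Means of 4 genes, Cdh2, Cdh6, Zeb1 and Zeb2, were higher in both PTEC groups than at all 3 kidney ages. Cdh6 was at 632 ± 280 CPM in non-senescent PTEC (SD, n = 4) and 5.28 ± 0.995 CPM in kidneys of 3 months (SD, n = 3), and Cdh2 at 238 ± 51.6 and 6.70 ± 1.95 CPM. With all 17 libraries scaled together the same count was 4. The ratio of Cdh1 to Cdh2, per kilobase and within a library, was 1.79 to 2.71 in non-senescent PTEC and 0.288 to 0.789 in senescent PTEC, against 22.8 to 65.3 over the 9 kidneys. Cdh1 transcripts thus exceeded Cdh2 transcripts in each non-senescent culture and in each kidney, and were fewer than Cdh2 transcripts in each senescent culture.

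**Figure D1:**
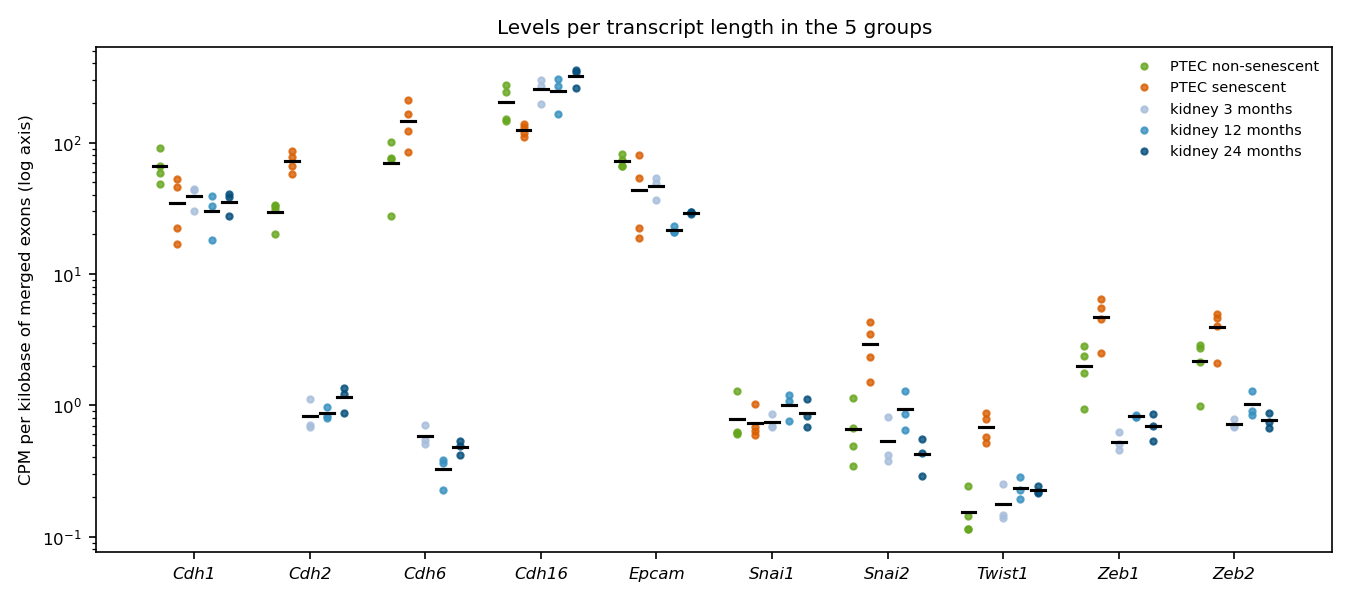
Level of the 10 genes in every library, in CPM per kilobase of merged exons on a log axis, with points for libraries (4 per PTEC group, 3 per kidney age) and black bars for group means. Cdh2 is at most 1.36 in kidneys against means of 29.5 and 71.9 in PTEC, Cdh6 lies at 0.228 to 0.711 in kidneys and 27.3 to 212 in PTEC, Cdh16 is at 110 or above throughout, and Snai1 stays between 0.595 and 1.28.

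The comparison of senescent with non-senescent PTEC covered 15434 genes that passed a filter on low counts, all 10 genes among them, with the quasi-likelihood test of edgeR. Calls required an absolute log2 fold change above 0.5 together with an adjusted p (Benjamini-Hochberg) below 0.05, and fold changes are senescent over non-senescent. Of the 10 genes, 4 rose (Cdh2, Snai2, Twist1 and Zeb1) and 1 fell (Cdh16). Among all genes tested 39.8% were called, 20.1% higher and 19.7% lower, so a count of 5 in 10 is close to that of any 10 genes in this comparison. Bulk RNA cannot tell fewer cells of a type from less RNA per cell.

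The replicate numbers were taken to pair the cultures: deviations from the group means were correlated between same-numbered cultures in all 4 pairs. Their r ran from 0.195 to 0.654, against -0.518 to 0.28 between differently numbered cultures. With the replicate number as a block, 9 of the 10 genes were called, 6 higher (Cdh6 and Zeb2 added) and 3 lower (Cdh1 and Epcam added). Over all 15434 genes tested the block moved the calls from 3100 to 3583 higher and from 3044 to 3293 lower.

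Cdh2, the N-cadherin, had 264, 253, 161 and 272 CPM in non-senescent replicates 1 to 4 and 626, 464, 538 and 692 CPM in senescent ones. Each senescent culture was above each non-senescent culture. Groups that did not overlap were found for 4 of the 10 genes (Cdh2, Cdh16, Snai2 and Twist1) and for 42.0% of all genes tested. The log2 fold change was 1.29 (95% interval 0.84 to 1.74, edgeR adjusted p = 0.000837), and the rise was seen in 4 of 4 pairs.

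Cdh6, the K-cadherin, had 689, 918, 247 and 672 CPM in non-senescent and 1480, 1915, 763 and 1099 CPM in senescent replicates. Replicate 3 was lowest in both groups, and the groups overlapped because senescent replicate 3 lay below non-senescent replicate 2. Its log2 fold change of 1.06 (95% interval 0.18 to 1.93) had an adjusted p of 0.0518 in edgeR. In the pairs the difference was 0.71 to 1.63 on the log2 scale, positive in 4 of 4, and with the block it was called higher (log2 fold change 1.12, edgeR adjusted p = 0.000869).

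Cdh16, the Ksp-cadherin of tubular epithelium, had 572, 549, 918 and 1038 CPM in non-senescent and 448, 416, 497 and 522 CPM in senescent replicates. All senescent cultures were lower than all non-senescent ones, the nearest being 522 and 549 CPM. The log2 fold change was -0.71 (95% interval -1.21 to -0.21, edgeR adjusted p = 0.0275). Cdh16 lost its call without senescent replicate 1 or 2 (adjusted p = 0.0745 and 0.0742) and without non-senescent replicate 3 or 4 (adjusted p = 0.0553 and 0.0600).

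Cdh1, the E-cadherin of adherens junctions, had 269, 304, 219 and 418 CPM in non-senescent and 102, 76.7, 241 and 210 CPM in senescent replicates. It was lower in senescent cultures in 3 of 4 pairs, by 0.99 to 1.99 on the log2 scale, and in the pair of replicate 3 it differed by 0.13 in the other direction. The log2 fold change was -0.94 (95% interval -1.75 to -0.14, edgeR adjusted p = 0.0574), and with the block -1.07 (edgeR adjusted p = 0.0261).

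Epcam, which modulates epithelial adhesion, had 146, 147, 181 and 162 CPM in non-senescent and 48.6, 40.9, 176 and 118 CPM in senescent replicates. Senescent replicates 1 and 2 were below all non-senescent cultures, replicate 4 was as well, and senescent replicate 3 lay within the non-senescent range. The log2 fold change was -0.73 (95% interval -1.64 to 0.19, edgeR adjusted p = 0.178). With the block it was -0.98 (edgeR adjusted p = 0.0349), all 4 pairs being lower, by 0.04 in replicate 3 and by up to 1.84. The within-library ratio of Epcam to Cdh1 per kilobase stayed at 0.808 to 1.72 in non-senescent and 0.993 to 1.53 in senescent PTEC.

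**Figure D2:**
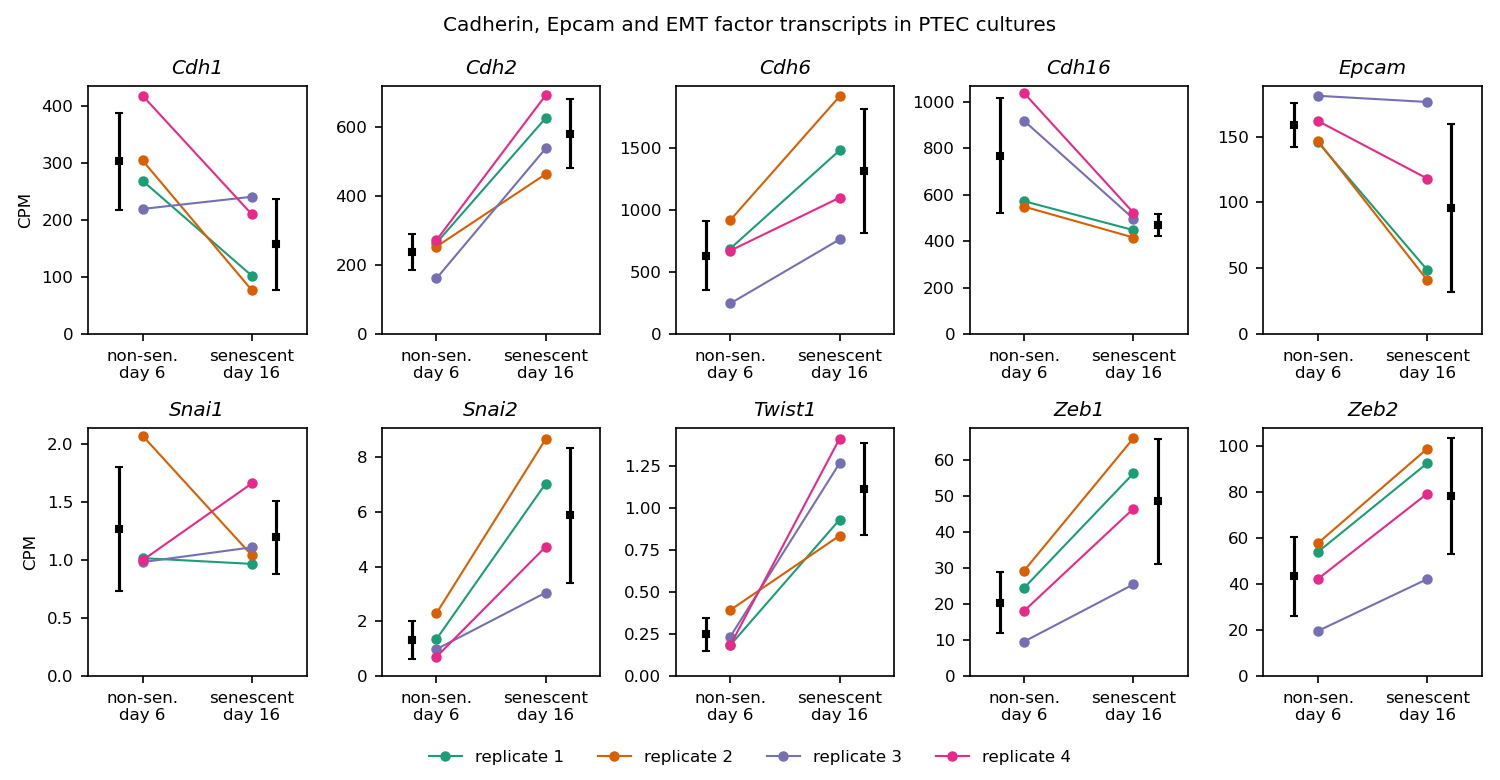
CPM of each gene in PTEC cultures on linear axes from 0, with coloured lines joining same-numbered replicates and black squares with bars for mean ± SD (n = 4). Lines run upward in all 4 pairs for Cdh2, Cdh6, Snai2, Twist1, Zeb1 and Zeb2 and downward in all 4 for Cdh16 and Epcam.

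Among the factors, both ZEB genes had higher values in the senescent culture of all 4 pairs. Zeb1 had 24.5, 29.2, 9.57 and 18.1 CPM in non-senescent and 56.2, 65.9, 25.4 and 46.4 CPM in senescent replicates, and the groups overlapped through senescent replicate 3. Zeb1 rose with a log2 fold change of 1.25 (95% interval 0.44 to 2.06, edgeR adjusted p = 0.0196), and the 4 pairs differed by 1.17 to 1.41 on the log2 scale. Without senescent replicate 1, senescent replicate 2 or non-senescent replicate 4 its adjusted p was 0.0506, 0.0557 and 0.0518, while with the block it was 4.15e-05.

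Zeb2 had 53.9, 57.8, 19.6 and 42.2 CPM in non-senescent and 92.5, 98.8, 42.1 and 79.3 CPM in senescent replicates. As for Zeb1, replicate 3 was lowest and replicate 2 highest in both groups. The log2 fold change of Zeb2 was 0.85 (95% interval 0.07 to 1.63, edgeR adjusted p = 0.0732), with pair differences of 0.77 to 1.10 that gave 0.89 and an edgeR adjusted p of 0.000275 with the block. The ratio of Zeb2 to Zeb1 per kilobase was 1.02 to 1.20 in non-senescent and 0.771 to 0.879 in senescent PTEC, without overlap.

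Snai2, which encodes Slug, had 1.35, 2.30, 0.980 and 0.701 CPM in non-senescent and 7.05, 8.67, 3.05 and 4.73 CPM in senescent replicates. The groups did not overlap, and counts rose from 19 to 70 reads to 113 to 259 reads per culture. It rose with a log2 fold change of 2.13 (95% interval 1.16 to 3.09, edgeR adjusted p = 0.00343).

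Twist1, a factor of mesenchymal and skeletal development, had 0.184, 0.394, 0.235 and 0.185 CPM in non-senescent and 0.933, 0.837, 1.27 and 1.42 CPM in senescent replicates. These levels rest on 5 to 12 reads per non-senescent and 25 to 47 reads per senescent culture, and the groups did not overlap. Twist1 rose with a log2 fold change of 2.14 (95% interval 1.37 to 2.90, edgeR adjusted p = 0.000944). Its mean remained the lowest of the 10 genes per kilobase after this rise.

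Snai1, which encodes Snail, had 1.01, 2.07, 0.980 and 0.997 CPM in non-senescent and 0.965, 1.04, 1.11 and 1.66 CPM in senescent replicates. Non-senescent replicate 2 stood apart, and pairs went in both directions, 2 higher and 2 lower. The log2 fold change was -0.09 (95% interval -0.83 to 0.65, edgeR adjusted p = 0.845), an interval that leaves room for a difference of either sign, and it was 0.25 without non-senescent replicate 2.

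Replicate 3 stood apart for several of the genes. Senescent replicate 3 had the highest Cdh1 and Epcam and the lowest Cdh6, Snai2, Zeb1 and Zeb2 of the senescent cultures, and non-senescent replicate 3 had the lowest Cdh1, Cdh2, Cdh6, Zeb1 and Zeb2. Without senescent replicate 3 the number of genes called lower was 3 instead of 1, and Cdh6 and Zeb2 were called higher. Leaving out replicate 3 of both groups, an alternative chosen after seeing the data, gave 2 genes lower (Cdh1 at -1.34 and Epcam at -1.12, edgeR adjusted p = 0.0226 and 0.0439) and a Cdh16 that was no longer called (-0.63, adjusted p = 0.0815). With the block as well, 3 were lower.

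Gene lists around the 10 genes are described by counts of called genes and medians, with an all-gene median of -0.002 on the log2 scale. Over all genes tested in PTEC 20.1% were called higher and 19.7% lower, the shares to hold these counts against. Of 20 tested genes of a mesenchymal program, 15 rose and none fell, with a median log2 fold change of 1.56. Acta2, the smooth muscle actin of contractile cells, rose by 3.52 from 60.5 ± 25.8 to 695 ± 248 CPM (SD, n = 4 each, edgeR adjusted p = 8.84e-05), Mmp2, a gelatinase, by 3.45 and Postn, the matricellular protein periostin, by 3.27. Of 29 genes of an epithelial program, 11 fell and none rose, with a median of -0.59. Among them were Ovol1, an epithelial transcription factor, with -2.44, Mal2, a protein of apical transport, with -1.73, and Tjp3, a tight junction scaffold, with -1.56. The summed level of this list was 1652, 1426, 2817 and 2298 CPM in senescent replicates 1 to 4, so replicate 3 was highest here as it was for Cdh1 and Epcam.

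On the catenin side of the junction there were few calls. Of 15 adherens junction partners 1 rose, Arvcf, a p120-like catenin (log2 fold change 1.04, edgeR adjusted p = 0.000902), and none fell, with a median of -0.03. Other cadherins went both ways, 4 higher and 4 lower of 16 tested, close to the shares of all genes called higher (20.1%) and lower (19.7%). Cdh11, the osteoblast cadherin of mesenchymal cells, rose by 3.36 from 18.8 ± 7.46 to 194 ± 58.4 CPM (SD, n = 4 each), Cdh10 by 2.18 and Clstn1, a calsyntenin, by 0.78, while Cdhr5, a brush border protocadherin, had -3.11, Cdh15 -2.08 and Cdh17, the liver-intestine cadherin, -1.68.

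Of 10 tested other EMT factors, 3 rose and 2 fell, where 39.8% of all genes were called, so this count is close to that of any 10 genes. Prrx1 rose by 1.91, Foxc1 by 0.95 and Sox4 by 0.69 on the log2 scale, while Twist2 and Snai3, paralogs of factors described above, had -1.13 and -1.06. Of 14 genes for partners and turnover of these factors 3 rose, namely Wtip (1.18), Btrc (0.68), the ubiquitin ligase subunit that recognises Snail, and Csnk1e (0.51), and none fell. Over all genes 20.1% were called higher, so 3 of 14 is close to that share. Of 7 tested nephron transcription factors, Pax2 rose by 0.67, and Hnf4a, a factor of proximal tubule differentiation, fell from 103 ± 22.3 to 13.1 ± 1.31 CPM (SD, n = 4 each, log2 fold change -2.98, edgeR adjusted p = 3.62e-06).

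Markers of other cells stand beside these results, in a comparison where 20.1% of all genes tested were called higher and 19.7% lower. Of 12 fibroblast and pericyte markers, 7 were tested, 4 were higher and 1, Cspg4, was lower. Thy1 was at 0.385 and 3.67 CPM and Dcn at 0.0893 and 0.765 CPM in non-senescent and senescent PTEC, Pdgfra at 1.33 and 2.13 CPM, Lum at or below 0.0738 CPM in every culture, and Dpt at 0 in all senescent cultures. The summed level of the list was 81.6 to 194 CPM in non-senescent and 42.7 to 96.6 CPM in senescent cultures, ranges that overlapped. On average Cspg4 made up most of this sum, at 105 ± 52.7 CPM in non-senescent and 43.9 ± 16.0 CPM in senescent cultures (SD, n = 4 each). Means of the other markers except Dpt were higher in senescent cultures, several of them below 1 CPM. Collecting duct markers, of cells rich in Cdh1 and Epcam, summed to 16.1 to 83.3 CPM in non-senescent and 8.98 to 14.1 CPM in senescent PTEC, with 5 of 7 tested lower and Aqp2 and Foxi1 at 0 in the senescent cultures. Of 6 tested proximal tubule markers 3 were lower and none was higher, namely Slc27a2 (-3.51), Kap (-3.19) and Slc5a2 (-2.41). Of the other lists, loop of Henle and distal tubule markers had 5 lower and 1 higher of 6 tested, urothelium markers 3 lower and 1 higher of 6, podocyte markers 2 higher of 6, endothelium markers 1 lower of 10, and leukocyte markers 2 lower of 10. Their part in the changes of the 10 genes was not tested.

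**Figure D3:**
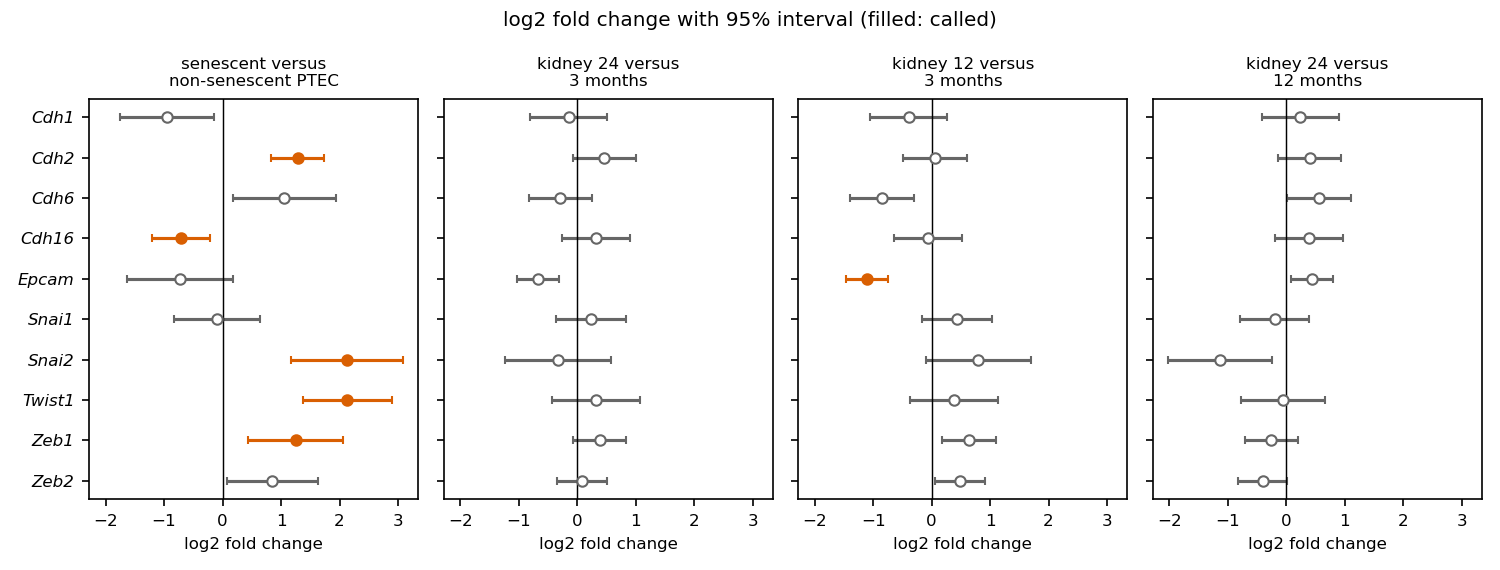
log2 fold change (points) with 95% interval (bars) of the 10 genes in the 4 comparisons, filled orange where called by edgeR and open where not. In PTEC 5 points are filled, at 1.29 (Cdh2), -0.71 (Cdh16), 2.13 (Snai2), 2.14 (Twist1) and 1.25 (Zeb1), and in kidneys 1 is filled, Epcam at 12 against 3 months (-1.10).

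Kidneys of 3 ages were compared in one edgeR fit of 9 libraries over 17067 genes, with all 10 genes tested. Over the 3 contrasts edgeR called 1 of the 10 genes, Epcam. It was at 108, 80.2 and 118 CPM in the 3 mice of 3 months, at 46.0, 50.5 and 45.8 CPM at 12 months and at 62.7, 65.0 and 65.2 CPM at 24 months. The 3 ages did not overlap, with the lowest values at 12 months and a wide spread at 3 months only.

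At 12 against 3 months 1 of the 10 genes was called, Epcam, lower by a log2 fold change of -1.10 (95% interval -1.46 to -0.74, edgeR adjusted p = 0.0148), where 2.58% of all genes were called and 1.36% were called lower. The call was lost without replicate 1 or 3 of 12 months (adjusted p = 0.0730 and 0.0807) and without replicate 1 of 3 months (0.0813). It was also lost in a fit of these 2 ages alone (0.0736) and with the replicate block (0.0643), although same-numbered kidneys of these ages did not deviate together. The log2 fold changes in these fits were between -1.06 and -1.11. In this comparison 4 of the 10 genes had groups that did not overlap, where 20.3% of all genes did, and 4 had an unadjusted p under 0.05, against 16.5% of all genes. Besides Epcam these were Cdh6, Zeb1 and Zeb2. Cdh6 had 4.88, 6.41 and 4.54 CPM at 3 months and 3.30, 2.06 and 3.47 CPM at 12 months (log2 fold change -0.85, edgeR adjusted p = 0.110), and DESeq2 called it lower (-0.86, adjusted p = 0.0389). Zeb1 had 4.65, 6.45 and 5.17 CPM at 3 months and 8.29, 8.42 and 8.66 CPM at 12 months (0.64, edgeR adjusted p = 0.143). Zeb2 had 13.6, 14.0 and 15.7 against 18.1, 25.7 and 16.8 CPM (0.49, edgeR adjusted p = 0.225).

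At 24 against 3 months edgeR called none of the 10 genes, where 2.34% of all genes were called. At an unadjusted p under 0.05 (18.2% of all genes) there was 1, Epcam, with a log2 fold change of -0.66 (95% interval -1.02 to -0.31, edgeR adjusted p = 0.0702), and DESeq2 called this 1 gene (-0.67, adjusted p = 0.00289). Epcam was also the only one of the 10 whose 24- and 3-month kidneys did not overlap, against 22.0% of all genes. Without replicate 2 of 3 months, the lowest of its group, edgeR called it (-0.80, adjusted p = 0.0188). The intervals of the other 9 genes included 0, from -0.81 to 0.52 for Cdh1.

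At 24 against 12 months edgeR and DESeq2 called none of the 10 genes, where edgeR called 1.33% of all genes, and none with the replicate block. At an unadjusted p under 0.05 (15.2% of all genes) there were 3, Epcam with 0.44, Cdh6 with 0.56 and Snai2 with -1.13 (edgeR adjusted p = 0.231, 0.313 and 0.219). These 3 also had groups that did not overlap, against 25.6% of all genes. Snai2 was at 1.32, 2.60 and 1.74 CPM at 12 months and at 0.870, 1.12 and 0.584 CPM at 24 months, from 76 to 158 and 38 to 74 reads. The 3 contrasts share their groups, so their values are not independent of each other.

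The remaining genes varied within the ages about as much as between them. Cdh16 was at 1018, 1143 and 750 CPM at 3 months, at 1022, 621 and 1146 CPM at 12 months and at 1353, 986 and 1306 CPM at 24 months. Cdh1 was at 203, 199 and 137 CPM at 3 months, 149, 82.8 and 179 CPM at 12 months and 186, 127 and 175 CPM at 24 months. Replicate 2 of 12 months and of 24 months was the lowest of its age for both of these cadherins. Cdh2 was at 5.49, 8.95 and 5.67 CPM, then 6.73, 6.42 and 7.80 CPM, then 10.9, 7.02 and 9.77 CPM, with a log2 fold change of 0.46 at 24 against 3 months (standard error 0.24, edgeR adjusted p = 0.328). Snai1 lay between 1.11 and 1.92 CPM and Twist1 between 0.225 and 0.461 CPM over the 9 kidneys, with overlapping ages in each contrast.

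**Figure D4:**
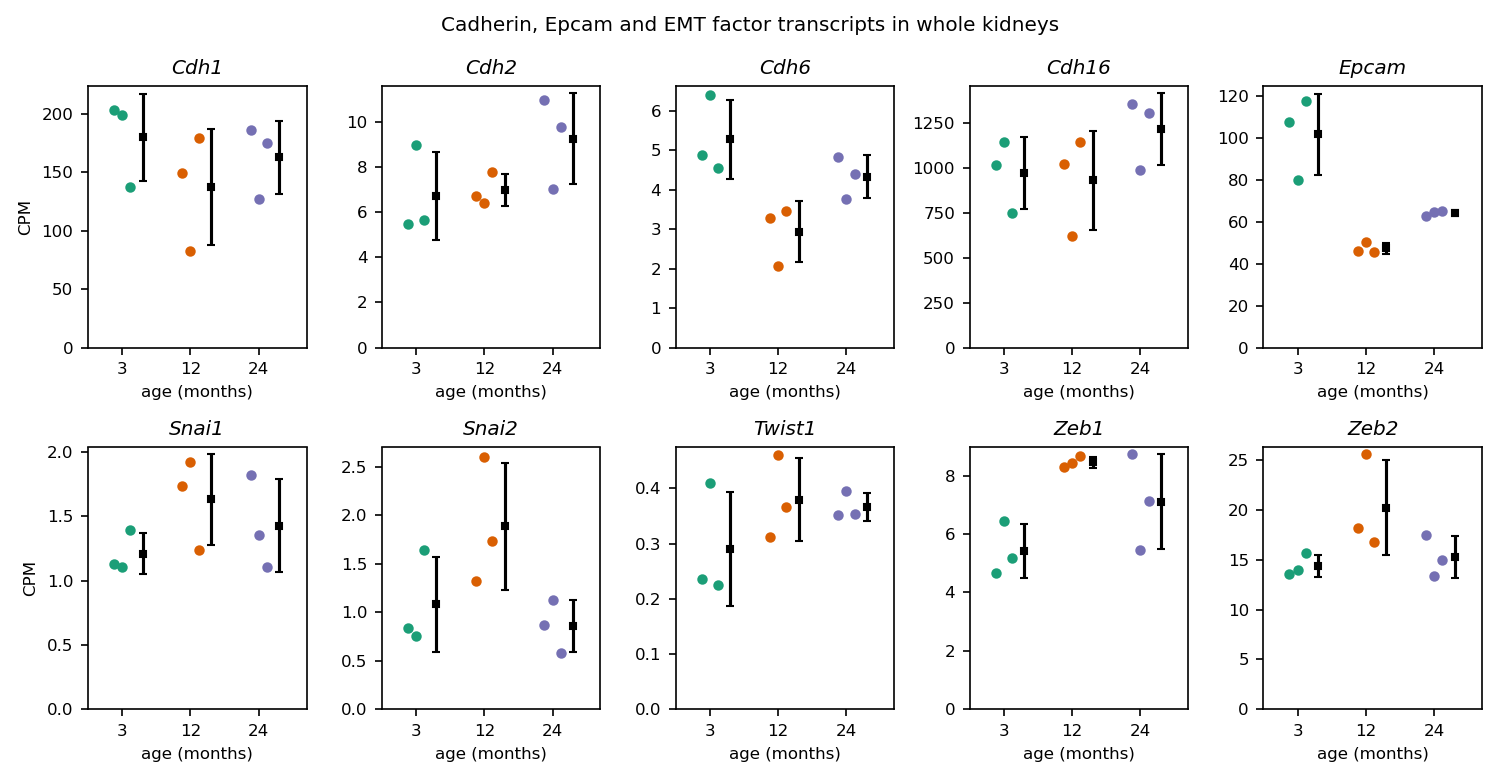
CPM of each gene in whole kidneys at 3, 12 and 24 months on linear axes from 0, with points for mice and black squares with bars for mean ± SD (n = 3). Epcam separates the ages, at 80.2 to 118, 45.8 to 50.5 and 62.7 to 65.2 CPM, while Cdh1 and Cdh16 overlap between all ages.

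The summed markers of the collecting duct, where Epcam is strongest, stood higher in each 3-month kidney than in every older one, as Epcam did. The sum of urothelium markers did so in 2 of the 3. Single markers could overlap, as Aqp2 did at 238 to 615 CPM at 3 months and 162 to 293 CPM at 24 months. The 12 collecting duct markers summed to 1171, 724 and 1042 CPM in replicates 1 to 3 of 3 months, to 351 to 506 CPM at 12 months and to 446 to 606 CPM at 24 months. At 12 against 3 months Aqp2, the water channel of principal cells, fell from 474 ± 205 to 104 ± 1.26 CPM (SD, n = 3 each, log2 fold change -2.18, edgeR adjusted p = 0.0224), and Avpr2, the vasopressin receptor, had -1.59 (edgeR adjusted p = 0.0240). At 24 against 3 months 1 collecting duct marker was called, Avpr2, lower with -1.40 (edgeR adjusted p = 0.0291). The 8 urothelium markers, of the renal pelvis lining, summed to 135, 23.4 and 116 CPM at 3 months, 2.20 to 5.28 CPM at 12 months and 23.3 to 53.2 CPM at 24 months, and 7 of 8 fell at 12 against 3 months with a median log2 fold change of -5.05. At 12 months 7 of the 8 were below 1 CPM. Their part in the Epcam difference was not tested. In replicate 2 of 3 months, which had the lowest sum of both lists in its group, Epcam was 80.2 CPM.

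**Figure D5:**
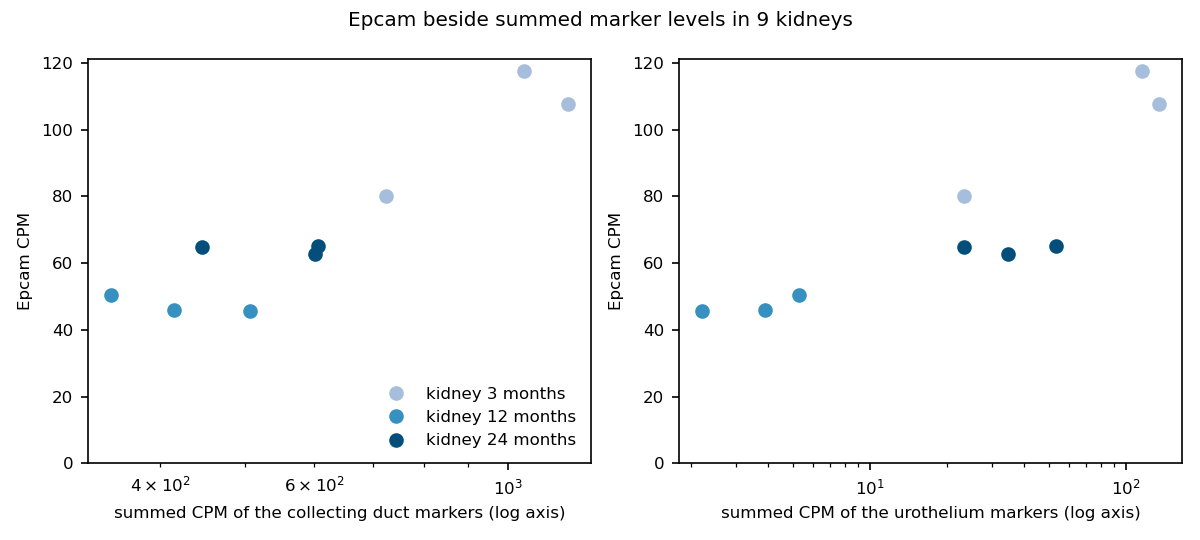
Epcam CPM (linear axis) against the summed CPM of 12 collecting duct markers (left) and 8 urothelium markers (right), both on log axes, with 1 point per kidney. The 3-month kidneys have the highest Epcam and the highest collecting duct sums (724 to 1171 CPM), and the 12-month kidneys the lowest Epcam and the lowest urothelium sums.

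At 12 against 3 months 6 of 29 genes of the epithelial program were lower, where 1.36% of all genes were called lower, with a median of -0.46 against 0.004 over all genes tested. Among them were Grhl1, an epithelial transcription factor, with -2.95 (2.23 ± 1.34 CPM at 3 and 0.287 ± 0.0946 CPM at 12 months, SD, n = 3 each) and Ehf, another, with -1.58. None of the 15 adherens junction partners and none of the other cadherins tested (14) was called in any of the 3 contrasts by edgeR. Of the mesenchymal program 1 of 21 was called, Tnc, lower at 12 against 3 months with -1.34. Sox4 was lower at 12 against 3 months (-0.68) and higher at 24 against 12 months (0.79). Sox9, a factor of regenerating tubules, was higher at 24 months against both 3 months (1.26) and 12 months (1.65). Its levels were low, at 0.703 ± 0.142, 0.536 ± 0.144 and 1.69 ± 0.180 CPM at 3, 12 and 24 months (SD, n = 3 each). Ajuba, a LIM protein that binds Snail, was higher at 24 against 12 months (1.21). The calls of Sox4, Sox9 and Ajuba at 24 against 12 months were lost in edgeR with the replicate number as a block, as were all 227 calls of this contrast. Same-numbered kidneys of these ages deviated together. The block was fitted over all 3 ages, however, and same-numbered kidneys of 3 months did not deviate with the older ones. Endothelium markers, of cells that express Zeb1, summed to 338 to 453 CPM at 3 months, 495 to 573 CPM at 12 months and 324 to 604 CPM at 24 months, and none of 10 was called. Of 12 leukocyte markers, Cd79a of B cells was higher at 24 against 3 months (2.86) and at 12 against 3 months (2.10), and Cd3e of T cells at 24 against 3 months (1.63). Their sum was 98.7 to 152 CPM at 3 months, 148 to 176 CPM at 12 months and 163 to 212 CPM at 24 months. Of 12 proximal tubule markers 3 were higher at 24 against 3 months, namely the glucose transporter Slc5a2 (1.88), Slc5a12 (1.56) and Miox (0.74). The sum of that list was 51457 to 52176 CPM at 3 months and 44141 to 49273 CPM at 24 months. Kap made up most of it, with 35576 ± 4077 and 25080 ± 2866 CPM at these ages (SD, n = 3 each). Besides Kap, the means of Slc27a2, Aqp1 and Slc13a3 were lower at 24 months and those of the other markers higher. The part of these markers in the values of the 10 genes was not tested.

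The genes whose profile was most like that of each member were sought by Pearson's r of log2(CPM + 0.5) over all tested genes. These r are descriptions over 8 cultures or 9 kidneys that fall into groups, so a shared group difference alone can give a high value. In PTEC Zeb1 was most like Zfp882 (r = 0.999) and Wwtr1 (0.994), Zeb2 like Adgrl3 (0.996), Cdh6 like Greb1 (0.994), Twist1 like Acsl6 (0.994), Snai2 like Ssbp3 (0.991) and Cdh2 like Gulp1 (0.991). On the side of the epithelial genes Cdh1 was most like Vtcn1 (0.991), Cdh16 like Tspan33 (0.989) and Epcam like Tnk1 (0.989). Snai1 had the weakest match, Gm32687 (0.904). In kidneys Epcam was most like Pgm5 (0.993) and Alcam (0.984), Cdh16 like Vars (0.992), Zeb1 like the endothelial factor Erg (0.985), Snai2 like Ints2 (0.984), Cdh1 like Cyb5rl (0.982), Zeb2 like Ano5 (0.977) and Cdh6 like Ints13 (0.976). No gene was the first match of the same member in both materials.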

How the data were processed

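RNA of 8 PTEC cultures and 9 mouse kidneys was sequenced by the authors from poly(A)-enriched, directional, paired-end libraries, and the authors deposited raw, unnormalized read counts of each gene. The build is GRCm38 per the labels. The study's methods name the nf-core/rnaseq pipeline with the GENCODE M18 annotation, in an account of 1 pool of 9 libraries. The aligner and counter within it and the strand setting are not given in the sources used here. PTEC, 3-month-old kidneys and older kidneys had been counted on 3 gene sets of 53715, 54146 and 55401 identifiers. Identifiers were matched without version to GENCODE M21 symbols, and promoter windows to RefSeq (GRCm38.p6).

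Analyses were run in R 4.3.3 (edgeR 4.0.16, DESeq2 1.42.0) and Python 3.11.15. PTEC and kidneys were fitted apart, with filterByExpr, TMM scaling, the robust quasi-likelihood test of edgeR, and p-values adjusted by Benjamini-Hochberg over all genes tested. Adjusted p-values are from edgeR unless DESeq2 is named. Calls need an absolute log2 fold change above 0.5 with an adjusted p below 0.05. CPM uses TMM within each experiment.

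The 10 genes, the 15 lists (202 genes) and the tests were chosen with earlier results of these data known. All 10 genes are named, and from each list up to 3 called genes with the largest and 3 with the smallest fold change per comparison, a few other markers being named for their level. Some genes that this rule names are not reported here.

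Deviations from group means correlated between same-numbered PTEC cultures with r from 0.195 to 0.654 over 4 pairs. Differently numbered cultures had r from -0.518 to 0.28, so the ranges overlapped. The labels' numbers were taken to pair the cultures. Between 24- and 12-month kidneys r was 0.263 to 0.641 for the same number and -0.592 to 0.392 for different numbers. At 24 and 12 against 3 months the same-numbered r were -0.528 to -0.027 and -0.766 to -0.056, which pairs none. Replicates of a group differed far beyond counting error (chi-square per gene 15.8 to 312 over 21 pairs). On simulated PTEC counts with 193 of 15231 genes changed, edgeR recovered 46 of 96 genes changed 2-fold and 88 of 97 changed 4-fold. These 134 correct calls stood beside 12 false ones. On simulated kidneys of 24 and 3 months with 198 of 16807 genes changed it recovered 20 of 99 and 74 of 99, so 94 correct calls beside 9 false ones. Far fewer genes were changed in the simulated PTEC than the 6144 called in the PTEC data, so these rates need not carry over. Alternatives were other scalings, no filter, DESeq2, a replicate block, a stricter fold threshold, each library left out in turn, fits of 2 ages alone, and a joint scaling of all libraries.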

Additional observations from a re-analysis of the deposited data

Results flagged for a closer look

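In non-senescent PTEC, Cdh2 in replicate 3 was 161 CPM, far below the other 3 cultures at 253 to 272 CPM, and its gap to the nearest culture exceeded Dixon's 95% critical value for 4 samples. Without it the log2 fold change of Cdh2 was 1.14 (edgeR adjusted p = 0.000692). Snai1 in non-senescent replicate 2 was 2.07 CPM, above the other 3 cultures at 0.980 to 1.01 CPM by the same criterion, from 63 reads against 25 to 33. Chance gives such a gap in about 1 of 20 groups, and 20 groups of 4 cultures were looked at.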

How the results depend on the processing

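Cdh2, Snai2 and Twist1 stayed called higher in senescent PTEC in all 16 alternatives, with log2 fold changes of 1.14 to 1.38, 1.88 to 2.52 and 2.01 to 2.44. The number of genes called lower in PTEC, 1 as reported, was 2 with DESeq2, 3 with the replicate block, 0 at a log2 threshold of 1, 0 to 3 with 1 culture left out, 2 without replicate 3 of both groups and 3 with the block as well, both of these last chosen after seeing the data. With the block 6 genes were called higher. In kidneys the number called lower at 24 against 3 months was 1 with DESeq2 and 0 to 1 with 1 kidney left out. At 12 against 3 months it was 2 with DESeq2, 0 with the replicate block (Epcam, edgeR adjusted p = 0.0643), 0 with these ages alone and 0 to 1 with 1 kidney left out. The block changed no other member's call in kidneys, but at 24 against 12 months it took the calls over all genes from 227 to 0. It was fitted over all 3 ages, while same-numbered kidneys of 3 months did not deviate with the older ones. Signs reversed only in differences that were not called and with 1 library left out. Snai1 in PTEC ran from -0.28 to 0.25. At 24 against 3 months Zeb2 ran from -0.017 to 0.18, Cdh1 from -0.31 to 0.0079 and Snai2 from -0.56 to 0.11. At 12 against 3 months Cdh16 ran from -0.24 to 0.16 and Cdh2 from -0.068 to 0.33, and at 24 against 12 months Cdh1 ran from -0.016 to 0.49 and Twist1 from -0.17 to 0.11. The cause of these shifts was not tested. Of 550 values of single genes under alternatives, 500 kept both direction and call. Depth limits the precision of Twist1, which had 5 to 12 reads in non-senescent cultures.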
